A study of Mus musculus with 45 samples.

Results

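Translation initiation factor genes were taken from the expression table by symbol alone, as the rows whose symbol starts with Eif and a digit from 1 to 6, without the eIF2 kinases (symbols starting with Eif2ak). The rule used no measured value and found 53 of the 26214 genes. RefSeq annotation (GRCm38.p6) held all 53 symbols and gave 52 of them as protein coding. The other one, Eif2c5, is a non-coding transcript whose synonym Ago5 places it with the Argonaute names. It was above 0 in 1 control FGO, 1 control 2C and 1 K36M 2C library, where its highest value was 3.40 TPM (transcripts per 1000000 transcripts), and it entered no test.

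The genes were measured in 4 groups of mouse libraries. Control fully grown oocytes (FGOs, 3 libraries) came from females with the H3f3b K36M-flox allele over a wild-type allele and no Cre. K36M FGOs (3 libraries) came from females of the same H3f3b genotype that also carried Gdf9-Cre, which is driven by an oocyte promoter and switches on HA-tagged H3.3K36M, a dominant mutant histone. Each FGO library was made from a pool of oocytes of females 3 to 4 weeks old, of hybrid C57BL/6 and 129 background. The 2-cell (2C) embryos (7 control and 8 K36M libraries, each from a single embryo) came from superovulated females of these genotypes, whose oocytes were fertilised in vitro with JF-1 sperm and collected 31 to 32 h later. Control embryo replicate 4, which had a technical fault by the study's account, was not used, except where a fit is said to include it, and its values are given apart. By the paper's account, K36M females crossed with wild-type males should give both H3f3b wild-type embryos and heterozygous K36M embryos. Sample titles do not say which of these each K36M 2C embryo was, so K36M 2C names embryos from K36M oocytes. The labels do not say that each library came from a different female, so the p-values measure the spread between libraries. FGO and 2C libraries differ also in pooling, amplification cycles, read number, superovulation and the JF-1 genome of the father, which cannot be told apart from stage.

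Initiation is the step at which a ribosome is placed on the start codon of an mRNA. The cap-binding protein eIF4E, the scaffold eIF4G and the helicase eIF4A bring the mRNA to a small ribosomal subunit that carries eIF1, eIF1A, eIF3, eIF5 and the eIF2 complex with the initiator tRNA. eIF2B recharges eIF2 with GTP, and the 4E-binding proteins hold eIF4E away from eIF4G. Fully grown mouse oocytes are transcriptionally silent and live on stored maternal mRNAs, whereas the 2C embryo destroys many of these and transcribes its own genome.

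The libraries carried the markers of their labels. All 8 oocyte markers (Gdf9, Bmp15 and Zp3 among them) were above 0 in each FGO library, with summed levels of 15447 to 17982 TPM against 1093 to 4451 TPM in the 2C libraries. The 8 markers of the embryonic genome, led by the Zscan4 genes, summed to 34.5 to 73.9 TPM in FGOs and to 270.4 to 2440 TPM in 2C embryos. TPM values state the share of a library that a gene takes per unit of length and keep no record of sequencing depth, so a fall of a gene and a rise of all others cannot be told apart, nor can fewer cells and less RNA per cell.

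Initiation factor genes were among the more abundant transcripts at both stages. In control FGOs 32 of the 53 (60.4%) had a mean of at least 100 TPM, against 9.19% of all genes in the table, and in control 2C embryos 33 did (62.3%, against 9.75% of all genes). The 5 highest in control FGOs were Eif4e1b (926 ± 31.5 TPM, SD, n = 3), Eif4enif1 (787 ± 26.5), Eif3g (464 ± 17.7), Eif4e3 (433 ± 11.4) and Eif2s2 (399 ± 7.40). Eif4e1b, Eif4e3 and Eif4enif1 belong to the cap-binding branch, as the oocyte form of eIF4E, a further eIF4E paralog and the eIF4E transporter. None of the 5 was among the 5 highest in control 2C embryos, which were Eif5 (897 ± 221 TPM, SD, n = 7), Eif4g2 (763 ± 67.0), Eif4g1 (659 ± 164), Eif3a (655 ± 293) and Eif3c (575 ± 199).

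**Figure D1:**
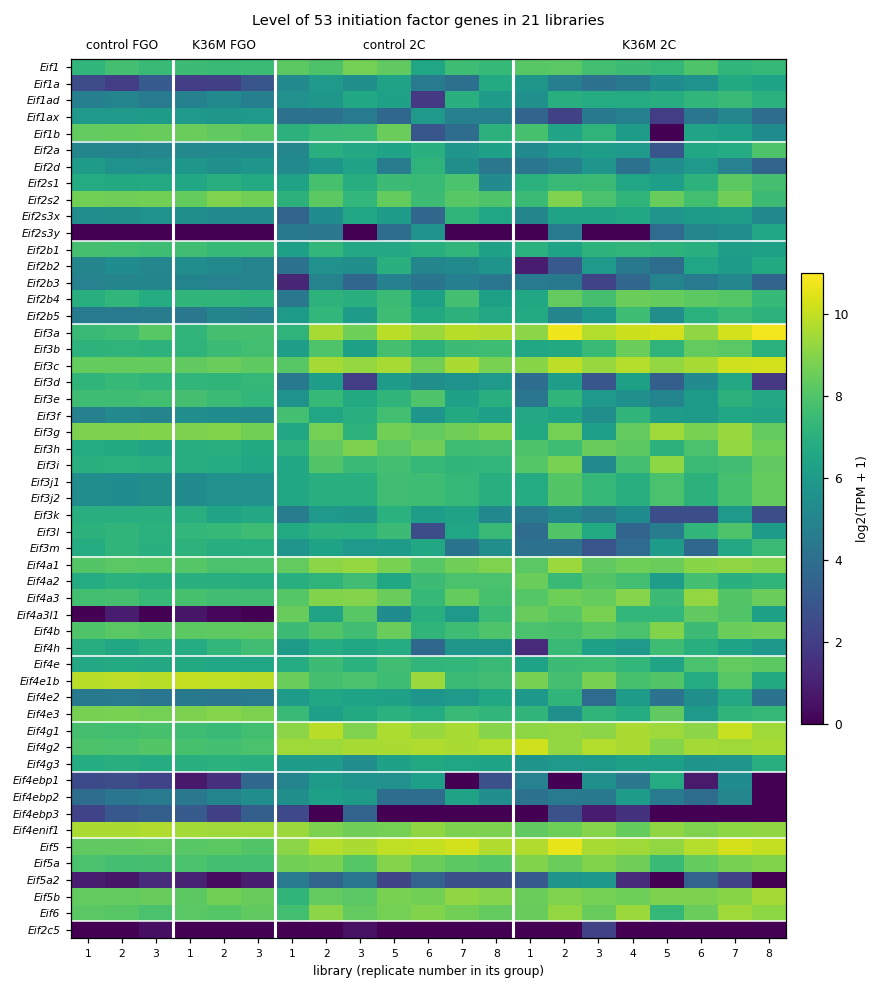
Heat map of log2(TPM + 1) of the 53 genes (rows, grouped by factor) in the 21 libraries used (columns, by group and replicate number). Eif4a3l1 was below 1 TPM in all 6 FGO libraries and at 39.3 TPM or more in all 15 2C libraries, and the 2C columns vary more from one to the next than the FGO columns.

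The spread between single embryos was several times that between oocyte pools. Among the initiation factor genes with a mean of at least 100 TPM, the median coefficient of variation was 4.38% in control and 8.55% in K36M FGOs, and 34.6% in control and 39.9% in K36M 2C embryos. Over all genes at that level it was 5.47%, 8.82%, 36.9% and 40.3% in the same order. In control 2C embryos the coefficient of variation was lowest for Eif4g2 (8.79%) and highest for Eif1b (83.8%).

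Between control FGOs and control 2C embryos, 16 of 52 tested initiation factor genes differed past an adjusted p of 0.05, 12 of them higher and 4 lower in 2C embryos. Eif1a, Eif2b5, Eif3a, Eif3f, Eif3h, Eif3j1, Eif3j2, Eif4a3l1, Eif4e2, Eif4g1, Eif4g2 and Eif5 rose, and Eif2b1, Eif4e1b, Eif4e3 and Eif4enif1 fell. The test was limma on log2(TPM + 1), adjusted over all 17358 genes with a mean of at least 1 TPM, of which 26.6% were called, 13.4% higher and 13.2% lower. For the initiation factor genes the last 2 shares were 23.1% and 7.69%. Their median log2 difference was 0.37, against 0.00 over all genes. A median-of-ratios scaling moved the median of all genes to -0.19 and that of the initiation factor genes to 0.05, and then gave 10 higher and 9 lower calls (all genes 1955 higher and 3113 lower, against 2323 and 2292 on the TPM scale). Quantile normalization gave 12 and 7 (all genes 2427 and 2887). The number of lower calls was 2 without control FGO replicate 2 and 2 without replicate 3 (all genes 1313 and 1285). The libraries of the stages did not overlap for 23 of the 52 genes (44.2%, beside 32.3% of all genes).

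In the K36M libraries the same stage comparison gave 24 calls of 52, 14 higher and 10 lower in 2C embryos, beside 29.3% of all genes called, 10.8% higher and 18.6% lower. The stages did not overlap for 22 genes (42.3%, beside 26.2% of all genes). The higher calls had 10 genes in common between genotypes, which is 83.3% of the 12 in control and 71.4% of the 14 in K36M libraries. The lower calls had Eif4e1b, Eif4e3 and Eif4enif1 in common, 75% of the 4 in control and 30% of the 10 in K36M libraries. The sign of the difference was equal in 49 of the 52 genes, all but Eif2b2, Eif2b4 and Eif4ebp2. No share over all genes was set beside these counts, so they do not show whether the agreement is particular to initiation factor genes. The other 7 lower calls of the K36M libraries were not made in control (Eif1ax, Eif3d, Eif3e, Eif3k, Eif3m, Eif4ebp3 and Eif4g3), and none of these genes passed the test of the interaction given further on. The count of lower calls was 3, 4 and 3 without K36M FGO replicate 1, 2 and 3. Over all genes the lower calls went from 3228 to 2052, 2074 and 2005 in the same fits. Median-of-ratios scaling moved the median of all genes from -0.18 to -0.32 and that of the initiation factor genes from 0.53 to 0.36, and gave 11 higher and 11 lower calls (all genes 1733 higher and 3748 lower, against 1866 and 3228 on the TPM scale).

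**Figure D2:**
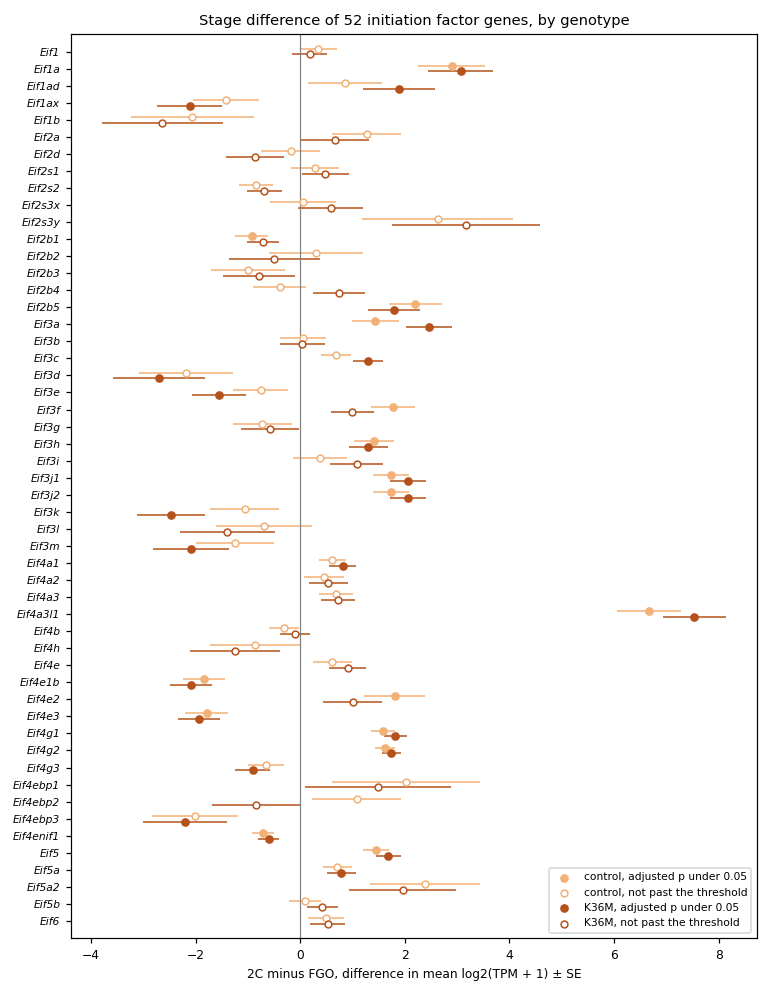
Difference in mean log2(TPM + 1) between 2C embryos and FGOs (horizontal axis, points with SE bars) for the 52 tested genes, in control and K36M libraries (2 colours); filled points passed an adjusted p of 0.05 and open points did not. Eif4a3l1 lies far to the right of all others in both genotypes (6.66 ± 0.61 and 7.53 ± 0.60, SE).

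Eif4a3l1 showed the largest stage difference of the 52 genes in both genotypes. It is a paralog of Eif4a3, a helicase of the eIF4A family that works in the exon junction complex. In control FGOs Eif4a3l1 was listed at 0, 0.86 and 0 TPM, and in K36M FGOs at 0.58, 0.16 and 0 TPM. In control 2C embryos it ranged from 39.3 to 347 TPM (median 121), and in K36M 2C embryos from 76.7 to 434 TPM (median 270.4). The lowest embryo stood far above the highest oocyte pool in both genotypes. The log2 difference was 6.66 ± 0.61 (SE; adjusted p = 1.4e-08) in control and 7.53 ± 0.60 (adjusted p = 1.1e-09) in K36M libraries. These sizes depend on the value added before the logarithm and became 9.18 and 9.76 with 0.1 in place of 1. Eif4a3 itself was at 195 ± 24.8 TPM in control FGOs (SD, n = 3) and 333 ± 125 TPM in control 2C embryos (n = 7), a log2 difference of 0.68 ± 0.33 (adjusted p = 0.132) that did not pass. Eif4a3l1 made up at most 0.398% of the summed TPM of both genes in control FGOs and 31.3% ± 17.9 (SD, n = 7) in control 2C embryos, a share that was computed after the values had been seen. In K36M libraries it was at most 0.26% in FGOs and 40.8% ± 14.3 (n = 8) in 2C embryos.

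The sequence of Eif4a3l1 limits how well its reads can be assigned. Its coding sequence lies in 1 exon on chromosome 6 (RefSeq, GRCm38.p6), whereas that of Eif4a3 is spread over 12 exons on chromosome 11. Both are 1236 bases long and 96.2% identical. Of the 1521 windows of 53 bases in the Eif4a3l1 transcript, the length of a read, 9.9% also occurred in an Eif4a3 transcript and 42.5% in the pseudogene Eif4a3l2, which has no row in the table, while 53.9% occurred in neither. How the counting treated reads that match more than 1 gene is not given in the sources used here, so the level of Eif4a3l1 is uncertain. The first 120 coding bases are shown for both genes, with the 10 positions at which they differ in capitals. The stretch of Eif4a3l1 is at chr6:136328543-136328662 on the plus strand and that of Eif4a3 at chr11:119299877-119299996 on the minus strand.
Eif4a3l1: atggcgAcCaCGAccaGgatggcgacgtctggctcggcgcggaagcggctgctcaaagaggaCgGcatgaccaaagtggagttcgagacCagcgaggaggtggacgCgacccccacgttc
Eif4a3: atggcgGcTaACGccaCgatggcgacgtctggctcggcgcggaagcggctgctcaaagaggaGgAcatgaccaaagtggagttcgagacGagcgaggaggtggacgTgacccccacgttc

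The promoter of Eif4a3l1 is shown because this gene went from near 0 to a high level. The 250 bases before its RefSeq transcript start lie at chr6:136327289-136327538 on the plus strand (GRCm38.p6), and 214 of them are marked as repeats in the genome sequence. The letters TATAA (the TATA box), TAATCC (the core of OTX-class homeodomain sites), CACGTG (the E-box) and CCAAT were searched on both strands. Capitals mark the matches, which were TATAA on the plus strand 28 bases before the start, TAATCC on the plus strand at 94 and on the minus strand at 87 bases before it, and CCAAT on the minus strand at 222 and 19 bases before it. CACGTG was not found. TATAA occurred in 22.8%, TAATCC in 6.25%, CACGTG in 6.02% and CCAAT in 33.8% of the 32851 promoters of the same length. Of the 41 initiation factor genes with a promoter in that set, 5 held TATAA, 6 TAATCC, 9 CACGTG and 13 CCAAT. A match is a run of letters and not a measured site.
Eif4a3l1 promoter: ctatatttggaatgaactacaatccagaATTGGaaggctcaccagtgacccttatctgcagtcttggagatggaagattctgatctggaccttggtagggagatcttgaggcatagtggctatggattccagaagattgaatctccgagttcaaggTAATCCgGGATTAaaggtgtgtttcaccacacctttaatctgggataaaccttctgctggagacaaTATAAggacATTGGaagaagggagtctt

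Of the 4 cap-binding eIF4E genes, 1 rose and 2 fell with stage in control libraries, and 0 rose and 2 fell in K36M libraries. Of all genes, 13.4% were called higher and 13.2% lower in control, and 10.8% and 18.6% in K36M libraries. Eif4e1b, the oocyte form of eIF4E, had the highest mean of all 53 genes in both FGO groups, at 909, 962 and 906 TPM in the control and 1008, 973 and 929.9 TPM in the K36M libraries. It ranged from 177 to 653 TPM (median 215) in control and from 102.2 to 427 TPM (median 242) in K36M 2C embryos, with no overlap with the FGOs. The log2 difference was -1.83 ± 0.40 (SE; adjusted p = 0.00146) in control and -2.09 ± 0.39 (adjusted p = 2.9e-04) in K36M libraries. Eif4e3, a paralog that binds the cap in an atypical way, fell from 433 ± 11.4 to 129.7 ± 37.4 TPM in control (log2 -1.79 ± 0.41; adjusted p = 0.00204) and from 469 ± 30.8 to 141 ± 82.1 TPM in K36M libraries (log2 -1.94 ± 0.40; adjusted p = 7.3e-04). Exons of Eif4e3 and of Gpr27 on the other strand share 507 bases. In all, 12 of the 53 genes share exon bases with a gene on the other strand, among them the called genes Eif4enif1 (800 bases with Gm51877), Eif5a (345 with Gps2), Eif3j2 (112 with Gm3650), Eif3j1 (107 with Spg11), Eif3m (82 with Ccdc73) and Eif1ad (64 with Banf1). Whether the counting used strand is not given in the sources used here, so their reads may not be told apart.

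Eif4e2 (4EHP), a paralog that binds the cap without eIF4G and represses translation, rose in control embryos, from 20.4 ± 1.33 to 75.3 ± 16.0 TPM (log2 1.81 ± 0.58; adjusted p = 0.0225). That call was lost without any 1 of the control FGO libraries, with median-of-ratios scaling and with control 2C replicate 4 added. In K36M libraries Eif4e2 was at 20.4 ± 1.22 TPM in FGOs and ranged from 13.2 to 146 TPM (median 50.2) in embryos, a log2 difference of 1.00 ± 0.57 that did not pass (adjusted p = 0.198). The canonical Eif4e was at 100.4 ± 3.48 TPM in control and 92.7 ± 7.60 TPM in K36M FGOs, and at 157 ± 29.7 and 194 ± 89.4 TPM in the 2C embryos. Each control embryo was above each control FGO library, but neither difference passed (log2 0.62 ± 0.36, adjusted p = 0.227, and 0.91 ± 0.36, adjusted p = 0.0592).

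The make-up of the eIF4E family is described here by shares, without a test. Eif4e1b took 62.6% ± 0.34 (SD, n = 3) of the family's summed TPM in control FGOs and 62.5% ± 1.15 in K36M FGOs. In 2C embryos its share was 42.1% ± 13.4 (n = 7) and 38.2% ± 14.1 (n = 8). Control embryo 6, at 67.6%, was above every FGO library, so the control shares overlapped, while the other 6 control embryos reached at most 51.5%. The highest K36M embryo, at 60.0%, was below the lowest K36M FGO library, at 61.5%. The share of Eif4e was 6.78% ± 0.06 and 5.97% ± 0.46 in FGOs and 25.1% ± 7.25 and 31.2% ± 15.5 in the embryos. The summed level of the 4 genes was 1479.9 TPM on average in control FGOs and 652 TPM in control 2C embryos, and the ranges (1445 to 1532 and 547 to 966 TPM) did not overlap.

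**Figure D3:**
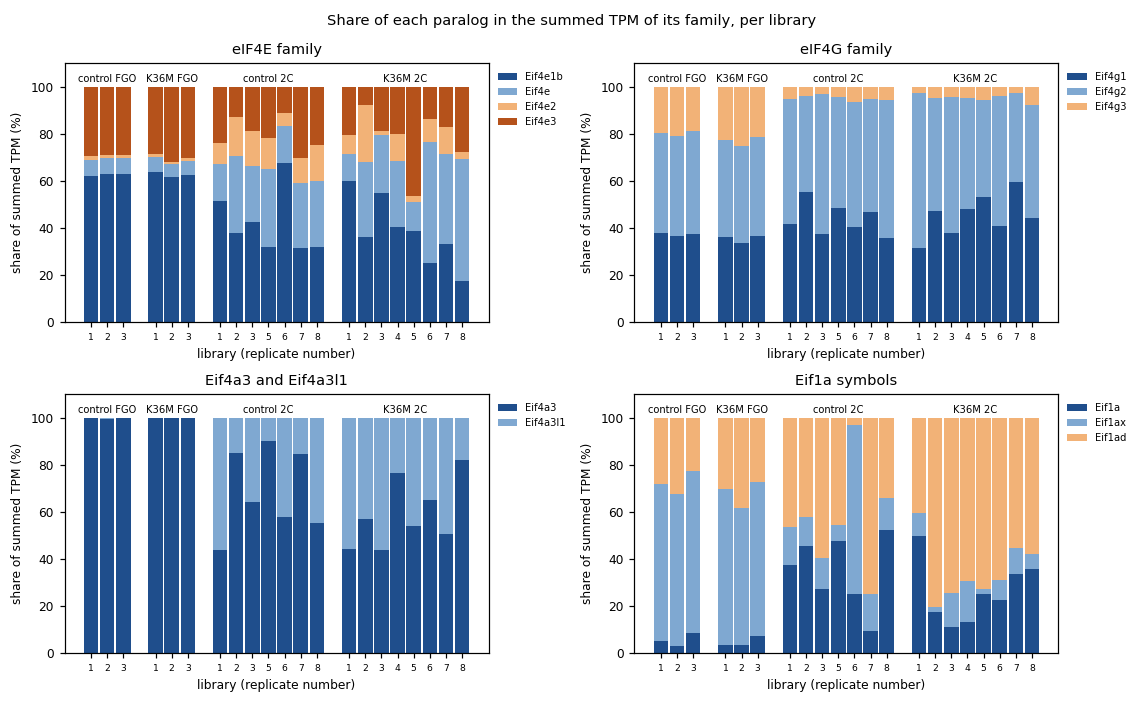
Stacked bars of the share (%) that each gene takes of its set's summed TPM, with a bar per library in the 4 groups. The sets are the eIF4E family, the eIF4G family, Eif4a3 with Eif4a3l1, and the Eif1a symbols (Eif1a, Eif1ax and Eif1ad). FGO bars are nearly equal to one another, with Eif4e1b at 62.6% of eIF4E on average in control, and 2C bars vary from embryo to embryo.

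Eif4e1b and Eif4e can be told apart by sequence. Their coding sequences aligned over 649 bases with 66.1% identity, and no 53-base window of the Eif4e1b transcript occurred in an Eif4e transcript.

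Among the proteins that bind eIF4E, the transporter gene Eif4enif1 fell in both genotypes and 1 of the 3 4E-binding protein genes, Eif4ebp3, fell in K36M libraries. Eif4enif1, whose product carries eIF4E into the nucleus, was at 787 ± 26.5 TPM in control FGOs and 489 ± 95.1 TPM in control 2C embryos (log2 -0.71 ± 0.21; adjusted p = 0.0132), and at 689 ± 17.7 TPM in K36M FGOs and 320.0 to 584 TPM (median 489) in K36M 2C embryos (log2 -0.60 ± 0.20; adjusted p = 0.0276). The control call was lost without control FGO replicate 2 or 3 and the K36M call without any 1 K36M FGO library. Eif4ebp1 was at 4.39 ± 0.74 and 4.86 ± 6.31 TPM in control and K36M FGOs and 38.3 ± 27.8 and 30.5 ± 36.6 TPM in control and K36M 2C embryos, where 1 control and 2 K36M libraries were listed at 0. Eif4ebp2 was at 18.5 ± 4.49 and 30.4 ± 10.2 TPM in the FGO groups and at 47.4 ± 26.8 and 24.1 ± 18.8 TPM in the 2C groups. Eif4ebp3 was at 6.60 ± 2.74 and 6.68 ± 3.04 TPM in FGOs and was listed at 0 in 5 of 7 control and 5 of 8 K36M embryos, with up to 10.2 and 5.68 TPM in the others. Eif4ebp3 fell in K36M libraries (log2 -2.195 ± 0.80; adjusted p = 0.0411), a call on low values that was lost without any 1 K36M FGO library, while Eif4ebp1 and Eif4ebp2 passed in neither genotype.

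Of the eIF4G scaffold genes, Eif4g1 and Eif4g2 rose in both genotypes. Eif4g1, the main scaffold between cap and ribosome, was at 216, 202 and 222 TPM in control and 192, 174 and 201 TPM in K36M FGOs, and at 472 to 899 TPM (median 628) in control and 542 to 1082 TPM (median 629.6) in K36M 2C embryos. Eif4g2 (DAP5), which lacks the eIF4E-binding region, was at 247 ± 13.7 and 220.0 ± 9.60 TPM in the FGO groups and at 763 ± 67.0 and 759 ± 199 TPM in the 2C groups. Every embryo lay above every oocyte library of its genotype for both genes. The log2 differences of Eif4g1 were 1.58 ± 0.22 in control (adjusted p = 9.7e-06) and 1.82 ± 0.22 in K36M libraries (adjusted p = 9.5e-07). Those of Eif4g2 were 1.62 ± 0.19 (adjusted p = 6.4e-07) and 1.74 ± 0.19 (adjusted p = 1.5e-07). The third paralog, Eif4g3, was at 113 ± 3.00 and 74.1 ± 19.5 TPM in control (log2 -0.66 ± 0.34; adjusted p = 0.16, not past the threshold) and fell from 123 ± 6.90 to 67.9 ± 22.9 TPM in K36M libraries (log2 -0.91 ± 0.33; adjusted p = 0.0411, lost without any 1 FGO library of either genotype). Its share of the eIF4G sum was 19.8% ± 1.16 in control FGOs and 4.93% ± 1.11 in control 2C embryos.

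**Figure D4:**
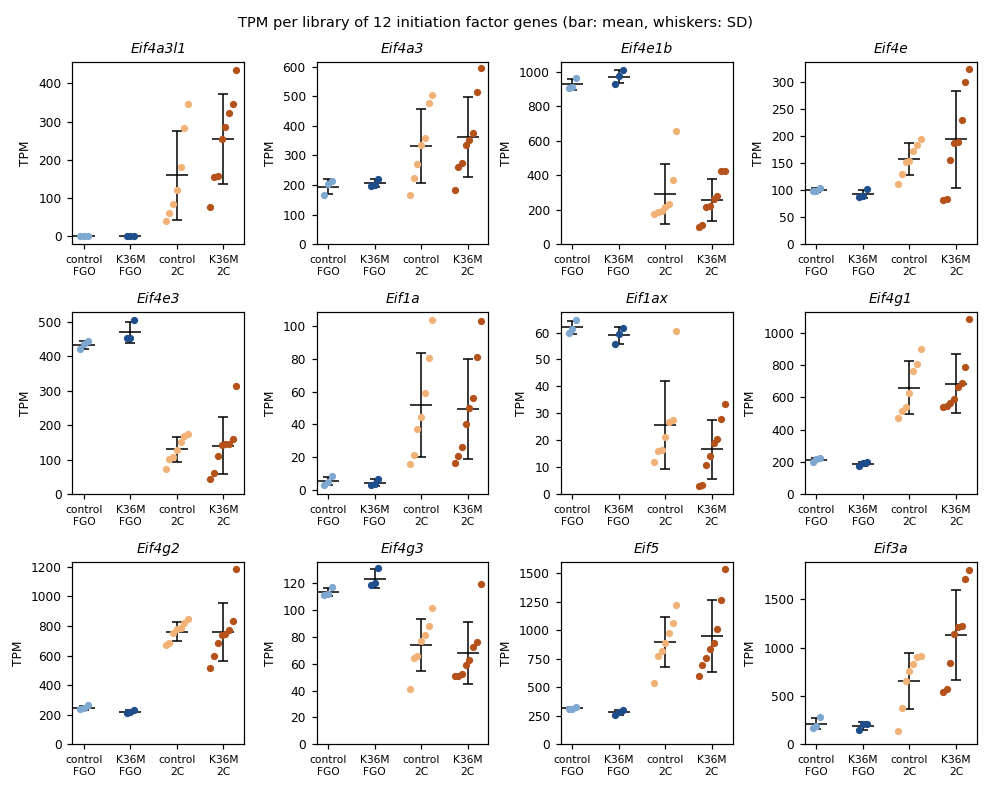
TPM of 12 initiation factor genes in each library (points), with the group mean (bar) and SD (whiskers), in control and K36M FGOs (3 libraries each) and control (7) and K36M (8) 2C embryos. Eif4g1, Eif4g2 and Eif5 lie higher and Eif4e1b and Eif4e3 lower in all embryos than in the FGOs of the same genotype.

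eIF1 and eIF1A keep the scanning ribosome open and help it choose the start codon. Eif1a was at 4.76, 2.94 and 8.19 TPM in control and 2.98, 3.21 and 6.66 TPM in K36M FGOs, and at 15.7 to 104 TPM (median 44.1) in control and 16.2 to 103 TPM (median 44.8) in K36M 2C embryos. All embryos were above all oocyte libraries. It rose by 2.90 ± 0.64 on the log2 scale in control (adjusted p = 0.0015) and by 3.07 ± 0.63 in K36M libraries (adjusted p = 6.4e-04). Its X-linked paralog Eif1ax was at 61.9 ± 2.42 and 59.0 ± 3.07 TPM in the FGO groups and at 25.7 ± 16.4 and 16.6 ± 10.9 TPM in the 2C groups. The K36M difference passed (log2 -2.11 ± 0.62; adjusted p = 0.0123, lost without K36M FGO replicate 1 or 3) and the control difference did not (log2 -1.41 ± 0.63; adjusted p = 0.103). The coding sequences of Eif1a (765 bases) and Eif1ax (435 bases) are 85.5% identical over 435 aligned bases, with no 53-base window in common.

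Eif1ad, which encodes an eIF1A domain protein, was at 25.9 ± 4.40 and 29.9 ± 5.99 TPM in FGOs, and at 67.3 ± 39.3 and 119 ± 36.7 TPM in 2C embryos. It rose in K36M libraries (log2 1.89 ± 0.69; adjusted p = 0.0421), a call lost without any 1 of the K36M FGO libraries, and did not pass in control (adjusted p = 0.399). Among the Eif1a symbols (Eif1a, Eif1ax and Eif1ad), Eif1ax took 66.4% ± 2.11 of the summed TPM in control FGOs and 63.4% ± 4.49 in K36M FGOs. In embryos it took 21.4% ± 22.4 and 8.95% ± 5.46. The control mean rested on replicate 6, where the share was 71.8% and Eif1ad was at 2.51 TPM, and was 13.1% ± 3.32 (n = 6) without it. Eif1a took 34.9% ± 15.2 of the sum in control and 26.1% ± 13.1 in K36M embryos, and the rest was Eif1ad. Of the eIF1 pair, Eif1 was at 175 ± 28.4 and 179.9 ± 8.64 TPM in FGOs and 245 ± 108 and 210.2 ± 57.2 TPM in embryos. Eif1b was at 338 ± 9.26 and 317 ± 40.1 TPM in FGOs and 142 ± 119 and 88.7 ± 67.0 TPM in embryos, with 1 K36M embryo listed at 0. Neither passed in either genotype.

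eIF3, the scaffold that binds the small subunit and the mRNA, had 14 genes in the table. In control libraries 5 rose (Eif3a, Eif3f, Eif3h, Eif3j1 and Eif3j2), 0 fell and 9 did not pass, beside 13.4% of all genes higher and 13.2% lower. In K36M libraries 5 rose (Eif3a, Eif3c, Eif3h, Eif3j1 and Eif3j2), 4 fell (Eif3d, Eif3e, Eif3k and Eif3m) and 5 did not pass, beside 10.8% higher and 18.6% lower. Eif3j1 and Eif3j2 cannot be counted as separate genes: their TPM values were in the ratio 0.998 in all 21 libraries, and their coding sequences were identical over the 786 aligned bases. Eif3j1 was at 40.9 ± 1.41 TPM in control FGOs and 144 ± 39.7 TPM in control embryos (log2 1.74 ± 0.35; adjusted p = 5.8e-04), and at 43.6 ± 4.50 and 197 ± 78.7 TPM in K36M libraries (log2 2.06 ± 0.34; adjusted p = 6.6e-05). The counts above include both copies.

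Eif3a, the largest core subunit, was at 173, 188 and 278 TPM in control and 147, 212 and 213 TPM in K36M FGOs. It ranged from 140.0 to 917 TPM (median 757) in control and from 542 to 1799 TPM (median 1177) in K36M 2C embryos. Control embryo replicate 1 lay below all FGO libraries, while every K36M embryo lay above them. The log2 difference was 1.43 ± 0.45 in control (adjusted p = 0.0203, lost without control FGO replicate 1 or 2) and 2.46 ± 0.44 in K36M libraries (adjusted p = 1.6e-04). Eif3c, its core partner, was at 335 ± 1.52 and 328 ± 28.3 TPM in FGOs and 575 ± 199 and 842 ± 261 TPM in embryos, and passed in K36M libraries (log2 1.30 ± 0.28; adjusted p = 0.00118) but not in control (log2 0.69 ± 0.29; adjusted p = 0.0785). Eif3f rose in control embryos from 31.3 ± 3.87 to 120.5 ± 60.2 TPM (log2 1.77 ± 0.42; adjusted p = 0.00277) and was at 39.4 ± 1.35 and 84.0 ± 31.1 TPM in K36M libraries (log2 0.99 ± 0.41; adjusted p = 0.0719). Eif3h was at 97.8 ± 12.1 and 111 ± 9.74 TPM in FGOs and 281 ± 114 and 302 ± 143 TPM in embryos. It rose by 1.41 ± 0.38 (adjusted p = 0.00734) on the log2 scale in control and by 1.30 ± 0.37 in K36M libraries (adjusted p = 0.00981, lost without K36M FGO replicate 3).

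Eif3d, Eif3e, Eif3k and Eif3m were the eIF3 genes that fell in K36M libraries. Eif3d, which can itself bind the cap of some mRNAs, was at 153 ± 9.47 and 152 ± 5.39 TPM in FGOs and 43.9 ± 24.4 and 39.6 ± 37.4 TPM in embryos (log2 -2.19 ± 0.90; adjusted p = 0.0749 in control, and log2 -2.70 ± 0.88; adjusted p = 0.0231 in K36M libraries). Eif3k was at 120.1 ± 2.08 and 101.7 ± 19.1 TPM in FGOs and 64.6 ± 34.7 and 24.6 ± 19.9 TPM in embryos, and passed in K36M libraries (log2 -2.47 ± 0.65; adjusted p = 0.00554). Eif3m was at 122 ± 11.5 TPM in K36M FGOs and 6.25 to 181 TPM (median 16.3) in K36M embryos (log2 -2.09 ± 0.73; adjusted p = 0.0326), and at 129 ± 17.7 and 59.3 ± 25.6 TPM in the control groups. Eif3e was at 184 ± 31.9 and 74.7 ± 46.9 TPM in K36M libraries (log2 -1.56 ± 0.51; adjusted p = 0.0239) and at 195 ± 8.80 and 129 ± 65.4 TPM in control. Of these 4 genes, Eif3k alone kept its K36M call when each K36M FGO library was left out in turn; the calls of Eif3d, Eif3e and Eif3m were lost without any 1 of them. Eif3b, Eif3g, Eif3i and Eif3l did not pass in either genotype. In control and K36M embryos Eif3b was at 159 ± 68.9 and 202 ± 107 TPM, Eif3i at 171 ± 51.3 and 278 ± 164 TPM and Eif3l at 116 ± 59.0 and 109 ± 99.9 TPM.

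Eif5, the GTPase activator of eIF2, rose from 319 ± 10.01 to 897 ± 221 TPM in control (log2 1.45 ± 0.25; adjusted p = 9.5e-05) and from 282 ± 21.1 to 948 ± 313 TPM in K36M libraries (log2 1.68 ± 0.24; adjusted p = 9.9e-06). Eif5a, the hypusinated elongation and termination factor, was at 218 ± 10.404 and 217 ± 13.7 TPM in FGOs and 367 ± 88.6 and 393 ± 108 TPM in embryos. It passed in K36M libraries (log2 0.79 ± 0.27; adjusted p = 0.0307, lost without any 1 K36M FGO library) and not in control (adjusted p = 0.0588). The helicase gene Eif4a1 was at 279 ± 11.8 and 248 ± 24.7 TPM in FGOs and 439.6 ± 116 and 452 ± 131 TPM in embryos, and passed in K36M libraries (log2 0.81 ± 0.25; adjusted p = 0.0169, lost without K36M FGO replicate 2 or 3) and not in control (adjusted p = 0.0817). Eif4a2, Eif4b, Eif4h, Eif5a2, Eif5b and Eif6 passed in neither genotype. Eif4a1 took 70.1% ± 1.02 of the Eif4a1 and Eif4a2 sum in control FGOs and 71.7% ± 8.22 in control 2C embryos.

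No gene of the eIF2 complex passed in either genotype. Eif2s1, Eif2s2 and Eif2s3x encode its subunits, and Eif2a and Eif2d encode separate proteins that can deliver tRNA. Eif2s2 was at 399 ± 7.40 TPM in control FGOs and 234 ± 77.9 TPM in control 2C embryos without overlap (log2 -0.84 ± 0.33; adjusted p = 0.0641), and passed under 5 of the 16 alternatives. In K36M libraries it was at 405 ± 67.2 and 269 ± 117 TPM. Within eIF2B, the exchange factor of eIF2, the catalytic subunit gene Eif2b5 rose in control (22.6 ± 1.61 to 115 ± 46.9 TPM; log2 2.199 ± 0.50; adjusted p = 0.00214) and in K36M libraries (25.9 ± 5.57 to 108 ± 59.2 TPM; log2 1.79 ± 0.50; adjusted p = 0.00801, lost without K36M FGO replicate 1). Eif2b1, a regulatory subunit, fell in control libraries (203 ± 11.7 to 110.4 ± 33.7 TPM; log2 -0.93 ± 0.32; adjusted p = 0.0328), a call lost without any 1 control FGO library, and was at 177 ± 15.6 and 112 ± 32.0 TPM in K36M libraries. Eif2b2, Eif2b3 and Eif2b4 did not pass.

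Eif2s3x and Eif2s3y encode the same eIF2 subunit from the X and the Y chromosome. Eif2s3x was at 43.5 ± 3.78 and 39.5 ± 3.77 TPM in control and K36M FGOs and at 64.0 ± 48.7 and 63.5 ± 22.8 TPM in 2C embryos. Eif2s3y was listed at 0 in all 6 FGO libraries, in 3 of 7 control embryos and in 3 of 8 K36M embryos, and reached up to 49.5 TPM in the other 4 control and 86.7 TPM in the other 5 K36M embryos. The Y-linked genes Ddx3y, Uty and Kdm5d were also at 0 in all FGO libraries. In control embryos at least 1 of them was above 0 in those 4 embryos only, and in K36M embryos in those 5 and in 2 of the 3 embryos with Eif2s3y at 0. Of those 2, replicate 1 had a sum of 41.0 TPM over the 3 genes and replicate 4 a sum of 0.127 TPM. The coding sequences of the pair are 86.3% identical with no 53-base window in common.

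Between K36M and control FGOs, no initiation factor gene passed the adjusted test in limma. Of 49 genes tested (all but Eif2c5, Eif2s3y, Eif4a3l1 and Eif5a2, which had a mean below 1 TPM), 7 had an unadjusted p under 0.05 (14.3%), beside 10.5% of all genes. That count moved with the libraries used, being 2 without control replicate 1 and 2 without control replicate 3 (all genes 7.05% and 6.93%), 4 without K36M replicate 2 and 4 without K36M replicate 3 (7.36% and 7.32%), and 11 without K36M replicate 1 (20.3%). It was 2 with no mean-variance trend in the model and 11 with array weights (all genes 9.04% and 15.2%). Of all 13775 genes, 0.00726% passed the adjusted test, 0% higher and 0.00726% lower. The study, which tested read counts with edgeR, called more genes than limma did here, in FGOs and in 2C embryos alike. The median log2 difference of the 49 genes was -0.000857 and that of all genes 0.0132, and the quartiles of the 49 genes were -0.12 and 0.12. The smallest adjusted p was 0.394, for Eif3l.

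The genes with the smallest p in K36M FGOs differed by small amounts. Eif3l, an outer subunit of eIF3, was at 134, 144 and 128 TPM in control and 155, 167 and 189 TPM in K36M FGOs (log2 0.32 ± 0.10; unadjusted p = 0.0108 in limma). Eif3b was at 138, 142 and 138 against 143, 178 and 205 TPM (log2 0.32 ± 0.13; adjusted p = 0.44), and was called (adjusted p = 0.0488) without K36M FGO replicate 1, when 300 of all genes were called. Eif3f was at 31.3 ± 3.87 and 39.4 ± 1.35 TPM, Eif4b at 268 ± 20.5 and 306 ± 11.1 TPM and Eif4ebp2 at 18.5 ± 4.49 and 30.4 ± 10.2 TPM, with log2 differences of 0.33 ± 0.14, 0.19 ± 0.08 and 0.67 ± 0.27. Eif4b, which stimulates the eIF4A helicase, was at 226 ± 71.8 and 299 ± 104 TPM in the embryos. On the lower side Eif4enif1 was at 766, 779 and 817 TPM in control and 709, 679 and 677 TPM in K36M FGOs (log2 -0.19 ± 0.06; adjusted p = 0.396). Eif3i was at 126 ± 4.43 and 105 ± 11.2 TPM, and Eif3i, Eif5, Eif4g2 and Eif2b1 had log2 differences of -0.26 ± 0.10, -0.18 ± 0.08, -0.17 ± 0.08 and -0.19 ± 0.09. The libraries of the 2 groups did not overlap for 12 of the 49 genes (24.5%), beside 15.6% of all genes.

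Other values were compared between the FGO groups beside these. H3f3b, the gene that carries the mutant allele, had a mean of 293 TPM in control and 398 TPM in K36M FGOs, with each K36M library above each control library and a log2 difference of 0.44 ± 0.09 (adjusted p = 0.281). The table does not separate its alleles, so this does not check the genotype. The 8 granulosa and cumulus markers were all above 0 in both groups and summed to 119 to 133 TPM in control and 130.0 to 196 TPM in K36M FGOs. In 2C embryos the same markers summed to 137 to 257 TPM in control and 77.8 to 396 TPM in K36M libraries. The part of granulosa and cumulus cells in these values was not tested. The 6 blood markers summed to at most 8.32 TPM in FGOs, with Hba-a1, Hba-a2 and Hbb-bt at 0.

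**Figure D5:**
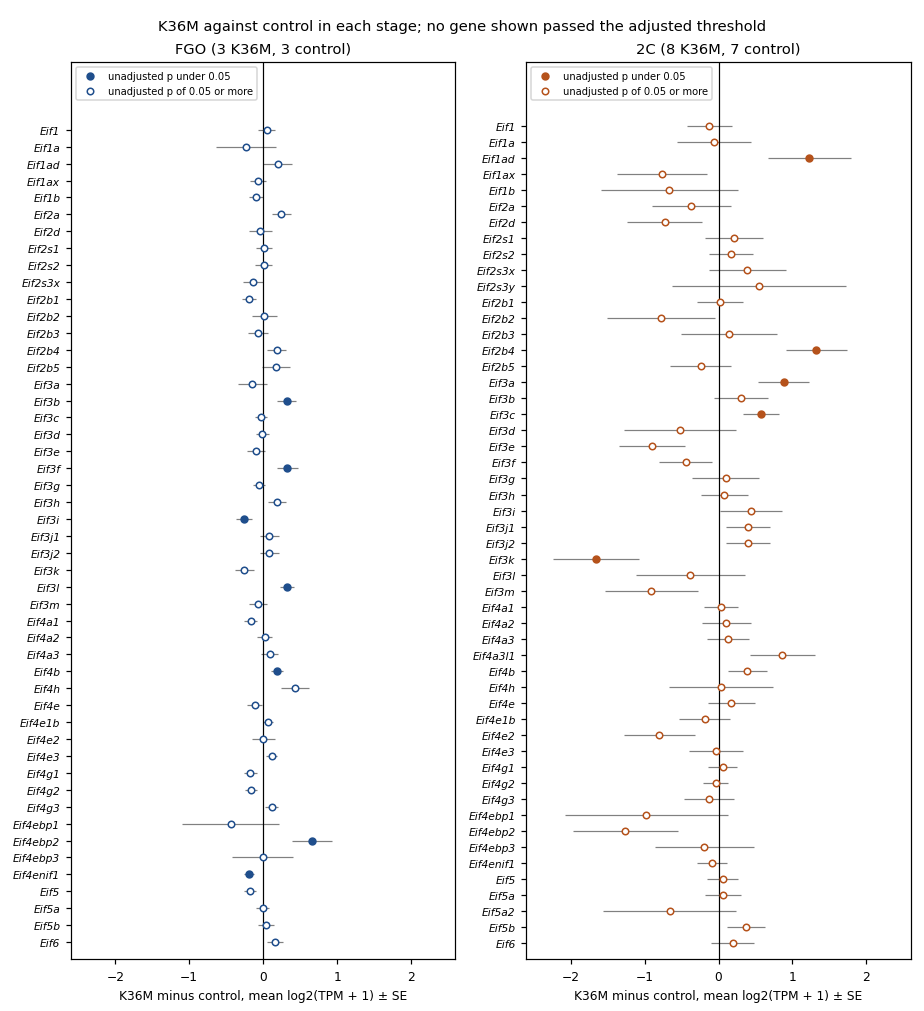
Difference in mean log2(TPM + 1) between K36M and control libraries (points with SE bars) in FGOs (49 genes) and in 2C embryos (52 genes). The FGO points lie between -0.44 and 0.67, and those of the 2C embryos between -1.66 and 1.32 with longer bars. Filled points had an unadjusted p under 0.05, and no gene passed the adjusted threshold.

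Between K36M and control 2C embryos no gene passed the adjusted test either, 0 of 52 initiation factor genes and 0% of all 17362 genes (limma; unadjusted p under 0.05 in 5 of the 52, 9.62%, beside 7.71% of all genes). With no mean-variance trend the unadjusted count was 2, beside 7.99% of all genes. The smallest adjusted p was 0.519, for Eif2b4. The groups overlapped for all 52 genes, and did not for 0.115% of all genes. The median log2 difference of the initiation factor genes was 0.03 and that of all genes -0.26, and quantile normalization brought these to 0.00 and -0.01.

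The genes with an unadjusted p under 0.05 were Eif2b4, Eif3a, Eif3c and Eif1ad on the higher and Eif3k on the lower side. Eif2b4, a regulatory eIF2B subunit, ranged from 20.02 to 207 TPM (median 127) in control and from 94.8 to 370.2 TPM (median 286) in K36M embryos (log2 1.32 ± 0.42; adjusted p = 0.519). In the FGO groups it was at 127 ± 21.7 and 143 ± 5.77 TPM. Eif3a (log2 0.88 ± 0.35), Eif3c (0.58 ± 0.24) and Eif1ad (1.23 ± 0.56) had adjusted p-values of 0.578, 0.593 and 0.623. Eif3k ranged from 23.2 to 129.6 TPM (median 60.7) in control and from 5.23 to 60.6 TPM (median 23.0) in K36M embryos (log2 -1.66 ± 0.58; adjusted p = 0.561). The next on the higher side was Eif4a3l1 (log2 0.86 ± 0.44). On the lower side Eif3e was at 129 ± 65.4 and 74.7 ± 46.9 TPM (-0.90 ± 0.45) and Eif2d at 57.1 ± 42.7 and 31.8 ± 17.4 TPM (-0.73 ± 0.50; FGOs 53.4 ± 10.3 and 51.6 ± 5.29 TPM), with log2 differences of -1.26 ± 0.70 for Eif4ebp2 and -0.80 ± 0.48 for Eif4e2. The median SE of the 52 genes was 0.40, against 0.11 in the FGO comparison.

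The stage difference was not shown to differ between genotypes for any initiation factor gene. In the test of the interaction (K36M stage difference minus control stage difference), 0 of 52 genes passed the adjusted test and 0 had an unadjusted p under 0.05, beside 0% and 1.15% of all 17358 genes (limma). The smallest p values on the positive side belonged to Eif3a (1.03 ± 0.63), Eif2b4 (1.14 ± 0.71), Eif3c (0.61 ± 0.40), Eif1ad (1.03 ± 0.99) and Eif4a3l1 (0.87 ± 0.85). On the negative side they belonged to Eif4ebp2 (-1.92 ± 1.19), Eif3k (-1.41 ± 0.93), Eif3f (-0.77 ± 0.59), Eif3e (-0.80 ± 0.73) and Eif4e2 (-0.80 ± 0.81). The median SE over the 52 genes was 0.68 on the log2 scale.

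Genes that act with the initiation factors were read from a list of 42 other translation genes. None of those tested passed in either K36M comparison or in the interaction. With stage, 12 rose and 5 fell in control libraries and 10 rose and 9 fell in K36M libraries. As shares of the 42 these were 28.6% and 11.9% in control, beside 13.4% and 13.2% of all genes, and 23.8% and 21.4% in K36M libraries, beside 10.8% and 18.6%. The shares that fell lay near those of all genes. Pabpc1, the poly(A)-binding protein that joins the mRNA tail to eIF4G, rose from 72.1 ± 14.8 to 1038 ± 249.9 TPM in control (log2 3.80 ± 0.24; adjusted p = 1.9e-11). Its oocyte paralog Pabpc1l fell from 311 ± 34.6 to 30.0 ± 22.1 TPM (log2 -3.62 ± 0.87; adjusted p = 0.00311). Both regulatory subunit genes of the eIF2 phosphatase rose in control, Ppp1r15a by 2.96 ± 0.28 (adjusted p = 2.2e-08) and Ppp1r15b by 1.32 ± 0.43 (adjusted p = 0.0241) on the log2 scale. In K36M libraries Ppp1r15a rose by 3.60 ± 0.27 (adjusted p = 5.1e-10), and Ppp1r15b did not pass (log2 0.62 ± 0.42; adjusted p = 0.295). Of the 4 eIF2 kinase genes, Eif2ak3 rose (log2 2.99 ± 0.40; adjusted p = 5.4e-06) and Eif2ak1 fell (log2 -1.46 ± 0.36; adjusted p = 0.00394) in control libraries. In K36M libraries Eif2ak3 rose (log2 2.07 ± 0.40; adjusted p = 3.4e-04), and Eif2ak1 (log2 -1.61 ± 0.35; adjusted p = 0.00128) and Eif2ak4 (log2 -1.21 ± 0.45; adjusted p = 0.0448) fell. In control libraries the eIF4E kinase gene Mknk2 rose by 3.55 ± 0.43 (adjusted p = 1.1e-06), and the initiation helper Denr by 2.17 ± 0.49 (adjusted p = 0.0019).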

How the data were processed

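Pools of FGOs and single 2C embryos were profiled by RNA-seq with a stranded SMART-Seq kit. The authors trimmed reads with Trim Galore!, mapped them to mm10 with Hisat2, removed ribosomal RNA with BEDTools and counted genes with featureCounts, and deposited TPM values in 1 table; the gene annotation, the lengths and the strand setting behind the TPM are not given in the sources used here. Each library sums to 1000000 TPM, so the table keeps no depth and no count test was run.

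Groups came from the sample titles. Differences were tested with limma 3.58.1 in R 4.3.3 on log2(TPM + 1), for genes with a mean of at least 1 TPM in the libraries fitted, with a mean-variance trend and Benjamini-Hochberg adjustment over all genes (threshold 0.05). Folds on this scale understate changes of low genes. FGOs (6 libraries) and 2C embryos (15) were fitted apart for the K36M comparisons, and all 21 together for stage and the interaction. The fit was tested on simulated data. The members and the lists of markers and translation genes were chosen with earlier results of these data known. Values are given for the eIF1, eIF4E and eIF4E-binding genes, Eif2s3x and Eif2s3y, the 5 highest genes of each control group and, per comparison, the 5 per direction with the smallest p or, with stage, the largest called change; others are named by their call. Sequences came from RefSeq (GRCm38.p6). One stretch of sequence is not reported here.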

Additional observations from a re-analysis of the deposited data

Results flagged for a closer look

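Of 104 tests of an initiation factor gene in a 2C group, 11 found an embryo apart from the others of its group by Dixon's criterion, which sets the gap to the nearest other embryo against the whole range of log2(TPM + 1). Chance would flag about 1 in 20. All 11 were on the low side, 10.6% of tests, beside 5.98% low and 12.6% high over all genes with a mean of at least 1 TPM (18.5% in all). In control embryos, Eif2b3 was at 1.24 TPM in replicate 1 (others 11.4 to 29.3) and Eif3d at 2.94 TPM in replicate 3 (others 20.97 to 67.9). Control replicate 6 was low for Eif4h (12.2 TPM, others 55.6 to 113), Eif3l (5.10 TPM, others 86.6 to 183) and Eif1ad (2.51 TPM, others 45.9 to 126). In K36M embryos, replicate 1 was low for Eif4h (1.48 TPM, others 57.3 to 192) and Eif1ad (45.4 TPM, others 108.0 to 169.6). Replicate 3 was low for Eif3i (36.4 TPM, others 181 to 561), and replicate 5 for Eif5a (166.8 TPM, others 338 to 489) and Eif1b (listed at 0, others 40.3 to 221). Replicate 8 was listed at 0 for Eif4ebp2 (others 13.8 to 64.5). The part of read depth per embryo in these values was not tested, since TPM keeps no depth.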

How the results depend on the processing

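No called difference of a named gene changed direction under any alternative run. For the control stage comparison (12 higher and 4 lower), the lower count was 7 with quantile normalization, 9 with median-of-ratios scaling and 2 with no mean-variance trend. It was 7 with the libraries of the 2 groups only and 2 to 4 on leaving out an FGO library. Array weights gave 25 higher and 14 lower. Over all genes the lower calls were 2887, 3113, 2269 and 2620 in the first 4 of these settings, against 2292 in the main fit. For the K36M stage comparison (14 higher and 10 lower), array weights gave 24 higher, the 2 groups only gave 6 lower and leaving out an FGO library gave 3 to 9 lower. Over all genes these counts were 3347 higher, 2573 lower and 2005 to 3010 lower. In FGOs the count of initiation factor genes higher in K36M was 0, and 0 to 1 on leaving out a library. Of the stage calls, 11 of 16 in control and 12 of 24 in K36M libraries held under all alternatives run, among them Eif4a3l1, Eif4g1, Eif4g2, Eif5, Eif4e1b, Eif4e3 and Eif1a in both. Median-of-ratios scaling removed the control calls of Eif3a and Eif4e2 and the K36M calls of Eif1ad, Eif4a1 and Eif5a, and quantile normalization the K36M calls of Eif4a1, Eif4ebp3 and Eif5a. Adding control 2C replicate 4 removed the control calls of Eif3h and Eif4e2. The cause of these changes was not tested. The share of Eif4a3l1 in its sum with Eif4a3 and the shares without 1 library were added after seeing the data.

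Over all genes, array weights called 9730 genes with stage in control (4615 in the main fit) and 8527 in K36M libraries (5094). Leaving out an FGO library of that genotype called 2844 to 2877 and 3421 to 3478. In FGOs 1 gene was called in the main fit, 0 to 2 under the other settings and 300 without K36M replicate 1. In 2C embryos 0 became 5 with no mean-variance trend and 1 with array weights, and in the interaction 0 became 13 over all genes above 0, 1 with no trend, 3 with array weights and up to 3 on leaving out a library.

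Replicate numbers did not pair the samples: same-numbered FGO libraries correlated at 0.0176, 0.0193 and 0.0895 in their deviations and 2C libraries at -0.1034 to 0.0976, and not every sample correlated best with its own number. With the replicate number as a replicate block, the control stage counts were 12 higher and 7 lower and the K36M ones 10 and 9, with 0 calls elsewhere. Over all genes these stage counts were 2156 and 1731 in control and 1746 and 2453 in K36M libraries.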

Other observations

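Control 2C replicate 4, which the study set aside, lay above the range of the other 7 control embryos for 7 initiation factor genes, below it for 16 and inside it for 30. These counts stand without a share over all genes and do not show that its position is particular to initiation factor genes. Replicate 4 had 848 TPM of Eif4e1b (others 177 to 653), 281 TPM of Eif4e3 (others 73.6 to 174), 535 TPM of Eif4g2 (others 669 to 850.3) and 2.87 TPM of Eif4a3l1 (others 39.3 to 347). These 4 genes were chosen after their values were seen.

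Further translation genes moved with stage in both genotypes. The release factor gene Etf1 rose from 150.2 ± 6.18 to 509 ± 89.9 TPM in control (SD, n = 3 and 7; log2 1.74 ± 0.23; adjusted p = 3.1e-06 in limma) and by 2.15 ± 0.22 on the log2 scale in K36M libraries (adjusted p = 8.9e-08). The release factor partner gene Gspt2 fell from 278 ± 13.6 to 24.8 ± 25.7 TPM in control (log2 -4.04 ± 0.97; adjusted p = 0.00303), with a log2 difference of -3.73 ± 0.95 in K36M libraries (adjusted p = 0.00428). Eef2k, the kinase of elongation factor 2, fell from 176 ± 8.45 to 55.3 ± 28.5 TPM in control (log2 -1.77 ± 0.52; adjusted p = 0.0139), with a log2 difference of -2.64 ± 0.51 in K36M libraries (adjusted p = 3.8e-04).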
